A study of Mus musculus with 28 samples.

Results

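Ribosome biogenesis factors are the proteins that modify, fold and cut ribosomal RNA in the nucleolus and load ribosomal proteins onto it. The set described here holds 39 genes, given as a list of symbols and found by symbol among the 56748 Ensembl identifiers of the count tables. All 39 were found, and all 39 passed the filter on low counts in each of the 3 comparisons. They were measured by sequencing of total RNA, depleted of ribosomal RNA, in 28 libraries of a pair of mouse mammary cell lines. There were 8 libraries of 4T1, a mammary cancer line that spreads in mice, with the treatment label DOX. HC11, an untransformed mammary epithelial line used to study milk cell differentiation, gave 10 libraries labelled DOX + DIP and another 10 labelled DOX. Neither abbreviation is explained in the labels, and in HC11 work DIP usually means dexamethasone, insulin and prolactin. DOX was on the label of all 28 libraries, so its own effect was not analysed here. The labels name no construct, clone, culture or batch. The p-values therefore measure only the spread between these libraries, and libraries that share a culture would make them too small.

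Ribosome synthesis starts with the transcription of a long precursor RNA by RNA polymerase I. Small nucleolar ribonucleoproteins (snoRNPs) of the box C/D class guide methylation of that RNA, and those of the box H/ACA class guide pseudouridylation. The small subunit (SSU) processome, a large early particle, forms on the growing precursor, and pre-40S and pre-60S particles then mature apart and are exported. The pathway is known as a target of the transcription factor Myc, is among the most costly in a dividing cell, and is often high in tumours.

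Levels are given as CPM, the counts of a gene scaled to a fixed library total with TMM factors over all 28 libraries. Depth was 134117581 to 222065843 counts per library, at which a count of 0 allows up to 0.0135 to 0.0224 CPM, for counting error only. No library was a copy of another: for the closest pair within a group, chi-square over its degrees of freedom was 17.7. That pair was 4T1 DOX libraries 5 and 6, against up to 388 in that group. Libraries 7 and 9 were the closest pair at 33.8 in HC11 DOX + DIP (up to 2362) and at 51.1 in HC11 DOX (up to 763). Some pairs were thus much closer than others, and whether they share a culture is not in the labels. A fit that leaves out 1 library of such a pair keeps the other. Markers of epithelial cells were present in every group, with a summed level of the 5 genes of 2739 to 3915 CPM in 4T1 DOX, 337 to 1005 CPM in HC11 DOX + DIP and 583 to 832 CPM in HC11 DOX. The 3 adipocyte markers summed to at most 0.616 CPM, the 3 endothelial markers to at most 5.21 CPM and the 4 leukocyte markers to at most 12.4 CPM in any library, and the leukocyte genes Adgre1 and Cd3e were at 0 in all 4T1 libraries.

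HC11 DOX + DIP libraries 8 and 10 stood apart from the other 8 of their group. Tsc22d3, a gene that glucocorticoids induce, had 34.2 and 47.7 CPM in libraries 8 and 10, against 239.9 to 433 CPM in the other 8. Its level was 13.2 to 28.6 CPM in HC11 DOX, so on this gene libraries 8 and 10 lay nearer to the group without DIP than to their own. Mki67, a marker of cycling cells, was low in both, with 8.53 and 10.1 CPM, inside the range of 3.25 to 27.6 CPM of the HC11 DOX + DIP group and below the 87.9 to 398 CPM of HC11 DOX. Myc had 887 and 1000.3 CPM in libraries 8 and 10, against 63.2 to 179 CPM in the other 8, 225 to 289 CPM in 4T1 DOX and 55.0 to 129 CPM in HC11 DOX. Basal epithelial markers summed to 154 and 209.9 CPM in libraries 8 and 10 and 929 to 1791 CPM in the other 8. The 5 fibroblast markers summed to 2.81 and 4.04 CPM in libraries 8 and 10 and 49.1 to 252 CPM in the other 8. Pdgfra, Dcn and Lum were lower in both than in any of the other 8, while Col1a1 and Col1a2 lay inside the range of the 8. Epithelial markers, at 337 and 385 CPM against 614 to 1005 CPM, were also lower in the 2. Of these, Cdh1 (204 and 216 CPM) lay inside the 197 to 252 CPM of the other 8. The leukocyte sum, at 12.4 and 10.8 CPM against 2.71 to 7.89 CPM, was higher, and nearly all of it was Cd68. The other leukocyte genes, Ptprc, Adgre1 and Cd3e, were at 0 in library 8 and at most 0.024 CPM in library 10. The nuclear RNA Malat1 took 0.0611% and 0.0354% of counts in libraries 8 and 10 and 0.0953% to 0.158% in the other 8. Mitochondrial genes took 2.81% and 3.16% in the 2 and 3.44% to 5.33% in the other 8. Each result on HC11 DOX + DIP is therefore given with and without these 2 libraries, and the part of any of these genes in it was not tested. In 4T1 DOX, libraries 1 and 2 had the highest Krt5, a basal keratin, at 64.8 and 95.5 CPM against 10.8 to 25.2 CPM in the other 6, and the highest Trp63, at 2.75 and 3.62 CPM against 0.52 to 0.88 CPM.

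The promoters of the set are shown for the motif that Myc and its partner Max bind, the E-box CACGTG. The motif was picked because Myc and most factors were at their highest among HC11 libraries in libraries 8 and 10. The part of Myc in the levels of the factors was not tested. RefSeq windows of 300 bases (GRCm38.p6, 250 before to 50 after the start site) were held for 34 of the 39 genes, not for Fbl, Npm1, Rrp12, Rrs1 and Bop1. Of these 34 genes, 11 held CACGTG, which is 32.4%, against 10.9% of the 12175 genes tested in the comparison of 4T1 DOX with HC11 DOX that have a window. The 11 sites follow, each with up to 12 bases to either side on the strand of the gene, 5′ to 3′, with the E-box in capitals.
Ltv1: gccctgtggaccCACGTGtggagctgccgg
Mybbp1a: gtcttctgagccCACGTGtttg
Nol11: cttgagcgttcgCACGTGgtctagactcca
Nop2: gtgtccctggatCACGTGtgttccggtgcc
Pes1: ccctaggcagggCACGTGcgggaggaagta
Pno1: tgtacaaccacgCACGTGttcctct
Tsr1: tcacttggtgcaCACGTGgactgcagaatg
Utp18: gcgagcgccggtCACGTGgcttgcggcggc
Utp20: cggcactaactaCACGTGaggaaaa
Utp4: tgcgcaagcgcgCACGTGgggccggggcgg
Wdr43: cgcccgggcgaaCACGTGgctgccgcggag
Nop2 and Utp18 hold the site before the start site, at offsets of -60 and -20 bases, and Nol11 at -43. In the other 8 genes it lies 2 to 40 bases after the start site. On GRCm38.p6 the windows shown are chr10:13193092-13193121 on the minus strand (Ltv1), chr11:72441355-72441376 on the plus strand (Mybbp1a), chr11:107189407-107189436 on the minus strand (Nol11) and chr6:125131811-125131840 on the plus strand (Nop2). The others are chr11:3963965-3963994, plus (Pes1), chr11:17211540-17211564, minus (Pno1), chr11:74898092-74898121, plus (Tsr1), chr11:93885769-93885798, minus (Utp18), chr10:88826765-88826789, minus (Utp20), chr8:106893643-106893672, plus (Utp4) and chr17:71616220-71616249, plus (Wdr43). The whole window of Nop2 (chr6:125131633-125131932, plus strand) is shown as an example of their context.
Nop2: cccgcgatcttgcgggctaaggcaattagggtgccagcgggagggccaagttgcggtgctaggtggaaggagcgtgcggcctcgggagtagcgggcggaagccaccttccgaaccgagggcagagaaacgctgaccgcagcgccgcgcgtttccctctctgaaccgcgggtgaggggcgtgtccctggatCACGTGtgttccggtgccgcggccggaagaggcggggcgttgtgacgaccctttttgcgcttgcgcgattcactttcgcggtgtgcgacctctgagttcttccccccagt
It holds 66.0% G and C and the GC box GGGCGG besides the E-box.

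Other motifs were searched on both strands as well. The ETS motif CCGGAAGT was in 10 of 34 genes (29.4%), against 8.11% of the genes tested. The GC box GGGCGG was in 26 (76.5%), against 63.4%, and the CCAAT box in 12 (35.3%), against 42.8%. A motif of NRF1, of 10 bases, was in 1 gene, Pno1 (2.94%), against 244 of the 12175 genes tested, and one of YY1, of 11 bases, in 0 of the 34 genes, against 1.58%. These are matches of letters, not measured binding. The shares of all 27025 genes with a window, tested or not, were 8.09% for the E-box and 4.31% for the ETS motif.

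**Figure D1:**
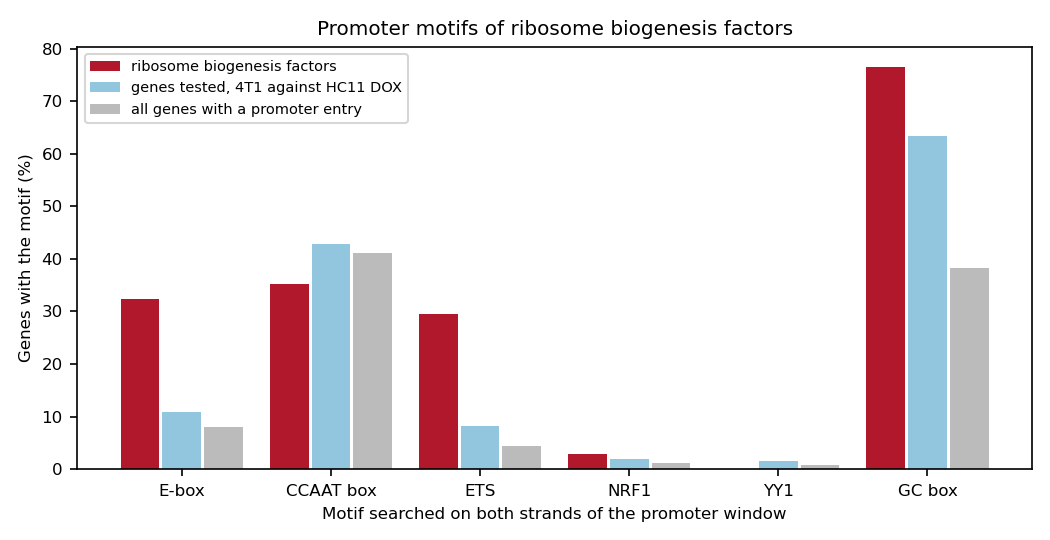
Share of genes (%) whose 300-base promoter window holds each of 6 motifs on either strand, for the 34 ribosome biogenesis factors with a window, the 12175 genes tested in 4T1 DOX against HC11 DOX with a window, and all genes with a window. The E-box (32.4%) and ETS (29.4%) bars of the factors stand above the other bars of the same motif, as does the GC box (76.5%), and the CCAAT bar (35.3%) stands below.

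Levels per length differed widely within the set. On the scale of mean CPM per kilobase of exon, Npm1, which encodes nucleophosmin, was the highest in all 3 groups, with 881 in 4T1 DOX, 223 in HC11 DOX + DIP and 402 in HC11 DOX. Wdr12, a pre-60S factor, was the lowest, with 6.98, 5.08 and 3.77 in the same order of groups. The median gene stood at 37.7 in 4T1 DOX, 24.6 in HC11 DOX + DIP and 21.5 in HC11 DOX. Together the 39 genes took 0.733% to 1.04% of all counts in 4T1 DOX, 0.265% to 1.09% in HC11 DOX + DIP and 0.384% to 0.824% in HC11 DOX.

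The mean level of the set varied from library to library. Averaged over the 39 genes, log2 CPM ran from a lowest library of 6.89 to a highest of 7.42 in 4T1 DOX, a 1.45-fold range. It ran from 5.52 in library 2 to 7.53 in library 10 in HC11 DOX + DIP, a 4.04-fold range, and the highest without libraries 8 and 10 was 6.84 in library 1. In HC11 DOX the range was 2.43-fold, from 5.79 in library 6 to 7.07 in library 8. In 4T1 DOX, libraries 4 and 2 were the lowest, at 6.89 and 6.92, against 7.21 to 7.42 in the other libraries. Ribosomal protein genes took 7.15% and 7.22% of counts in libraries 4 and 2, against 5.54% to 5.94% in the other 4T1 libraries. No fit left out both together. The median SD of log2 CPM over the 39 genes was 0.22 in 4T1 DOX, 0.70 in HC11 DOX + DIP (0.43 without libraries 8 and 10) and 0.48 in HC11 DOX. For the 5149 genes in the same range of levels it was 0.14, 0.35 (0.23 without them) and 0.24, so the median factor varied more than the median gene of like level in each group. Fbl had the lowest SD in 4T1 DOX, 0.03, and Rrp12 the highest, 0.48. In such bulk libraries, fewer cells of a type and less RNA per cell cannot be told apart.

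**Figure D2:**
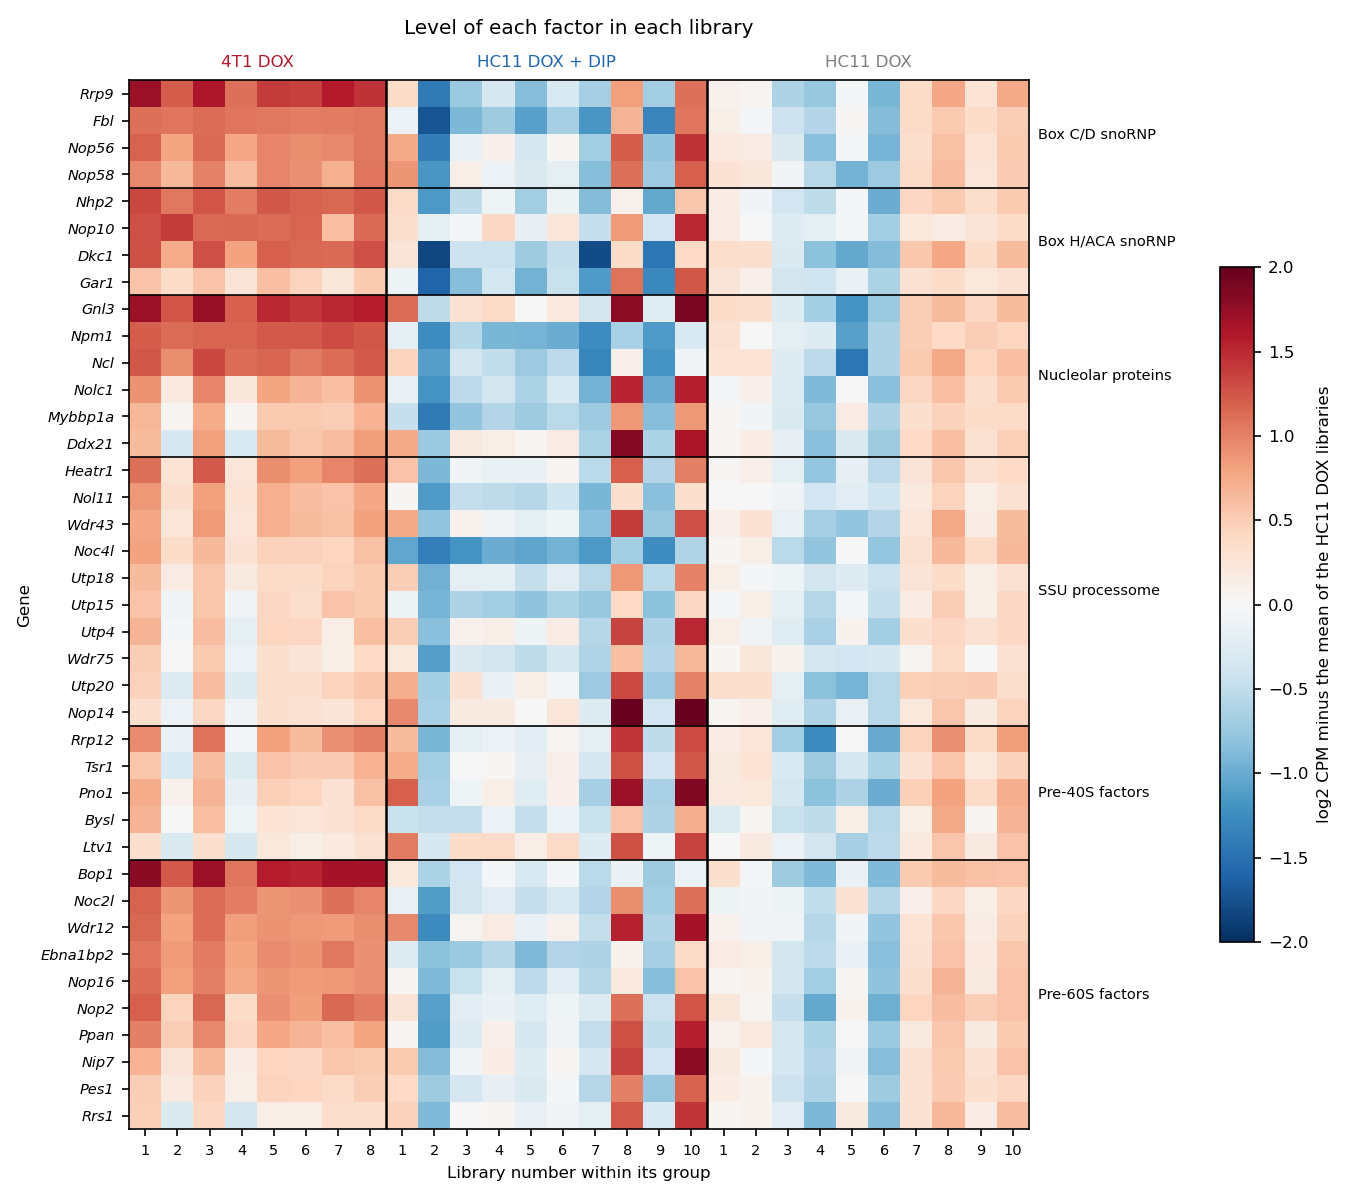
Level of each of the 39 factors (rows, grouped by role) in each library (columns, by group and library number), as log2 CPM minus the gene's mean over the HC11 DOX libraries; red is higher, blue lower, and colours saturate at 2 and -2. Most rows are red in 4T1 DOX and in HC11 DOX + DIP libraries 8 and 10, and blue in HC11 DOX + DIP library 2 and in HC11 DOX libraries 4 and 6.

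In 4T1 DOX, 27 of the 39 factors were higher than in HC11 DOX and 0 were lower. Calls were made at a Benjamini-Hochberg adjusted p under 0.05 in edgeR's quasi-likelihood test of 23875 genes, of which 34.3% were called higher and 35.6% lower. No factor was lower at an unadjusted p under 0.05 either, nor by DESeq2 or limma voom. All 39 log2 fold changes were above 0, at 0.06 to 1.42 with a median of 0.59, while the median of all genes tested was -0.01. With library totals as the only scaling 34 were above 0 and Ltv1, Nop14, Rrs1, Utp20 and Wdr75 below it, and Ltv1 and Rrs1 were below it with a filter at 1 CPM. Every 4T1 library lay above every HC11 DOX library for 13 of the 39, as for 19.5% of the genes tested, and below for 0, as for 17.5%. With library totals the median of all genes moved to -0.24 and that of the factors to 0.37, so that the distance between them was 0.61, against 0.60 with TMM factors. The comparison sets 1 line against another, so what DOX does in either was not tested. Basal markers summed to 333 to 515 CPM in 4T1 DOX, against 2893 to 7626 CPM in HC11 DOX, and fibroblast markers to 9.39 to 15.6 CPM in 4T1 DOX, against 33.2 to 73.1 CPM in HC11 DOX. Epithelial markers summed to 2739 to 3915 CPM in 4T1 DOX, against 583 to 832 CPM in HC11 DOX, and the part of these markers in the result was not tested. Without 4T1 libraries 1 and 2, 26 factors were higher and 0 lower. Noc4l (0.40, adjusted p = 0.0788) was then not called, and 7 pre-60S factors were called, against 8 with all libraries. Ddx21 was gained (0.50, adjusted p = 0.041).

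The RNA of all 4 box C/D proteins and of all 4 box H/ACA proteins rose in 4T1 DOX. Fbl, fibrillarin, is the methyltransferase of box C/D particles. It had 250.4, 257 and 265 CPM (lowest, median and highest) in 4T1 DOX, against 67.4, 129 and 176 CPM in HC11 DOX. The groups did not overlap, and Fbl was 1.98-fold higher (log2 fold change 0.98 ± 0.15, SE, adjusted p = 5.69e-06). Rrp9, the protein that marks the U3 particle, had 80.9, 101 and 124 CPM in 4T1 DOX, against 19.9, 39.5 and 64.6 CPM in HC11 DOX. It rose 2.50-fold without overlap (1.32 ± 0.19, adjusted p = 4.67e-06). Nop56 and Nop58 are the paired scaffold proteins of the box C/D particle. Nop56 had 366, 421 and 488 CPM in 4T1 DOX, against 113, 244 and 321 CPM in HC11 DOX. Nop58 had 263, 329.9 and 363 CPM in 4T1 DOX, against 89.9, 203 and 265 CPM in HC11 DOX. The groups were apart for Nop56 and just touched for Nop58, and the rises were 1.85-fold (0.89 ± 0.17, adjusted p = 8.06e-05) and 1.71-fold (0.77 ± 0.17, adjusted p = 0.000573). Near-identical copies of Nop56 elsewhere in the genome held 22.9% to 41.5% of its count, so its level is uncertain where the counting splits reads between them.

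Dkc1, dyskerin, is the pseudouridine synthase of box H/ACA particles and of telomerase. Its level was 127, 171 and 186 CPM in 4T1 DOX, against 37.1, 96.2 and 130 CPM in HC11 DOX. The groups overlapped, and Dkc1 was 1.98-fold higher (0.98 ± 0.22, adjusted p = 0.000448). Nhp2 and Nop10 are small core proteins of the same particle. Nhp2 had 196, 223 and 242 CPM in 4T1 DOX, against 48.4, 101 and 139 CPM in HC11 DOX, and rose 2.15-fold without overlap (1.10 ± 0.16, adjusted p = 3.09e-06). Nop10 had 44.3, 64.6 and 76.9 CPM in 4T1 DOX, against 18.4, 30.8 and 37.9 CPM in HC11 DOX, and rose 2.13-fold without overlap (1.09 ± 0.12, adjusted p = 6.67e-08). Gar1, the other core protein, had the smallest rise of the class, 1.32-fold (0.40 ± 0.12, adjusted p = 0.0063), with overlap.

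Of the 6 genes in the class of nucleolar proteins, 5 rose and Ddx21 was not called. Gnl3, nucleostemin, a GTP-binding protein known from stem and tumour cells, had 155, 193 and 228 CPM in 4T1 DOX, against 29.8, 87.1 and 105 CPM in HC11 DOX. It was 2.58-fold higher without overlap (1.37 ± 0.21, adjusted p = 6.89e-06). Npm1, a chaperone of histones and ribosomal proteins, had 2206, 2369 and 2498 CPM in 4T1 DOX, against 479, 1135 and 1433 CPM in HC11 DOX. Npm1 rose 2.17-fold without overlap (1.11 ± 0.16, adjusted p = 4.56e-06), with 4 copies that held 31.6% to 38.8% of its count. Ncl, nucleolin, which binds the precursor RNA, had 1921, 2241 and 2569 CPM in 4T1 DOX, against 372, 1224 and 1712 CPM in HC11 DOX. It rose 2.02-fold without overlap (1.01 ± 0.21, adjusted p = 0.000232). Nolc1, a chaperone of snoRNPs, rose 1.51-fold and Mybbp1a, a nucleolar partner of MYB, 1.34-fold, both with overlap, and the call of Mybbp1a was lost without 4T1 library 3 or 8. Ddx21, an RNA helicase, had 147, 288 and 331 CPM in 4T1 DOX, against 104, 200.4 and 282 CPM in HC11 DOX, a log2 fold change of 0.41 ± 0.20 (adjusted p = 0.0746). It was called without HC11 DOX library 8, without 4T1 library 2 or 4, and without 4T1 libraries 1 and 2 together.

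The SSU processome gave 6 rises among 10 genes, all with overlapping groups. Its t-UTP proteins, which join transcription by RNA polymerase I to processing, are Heatr1, Nol11, Wdr43, Utp15, Utp4 and Wdr75. Heatr1 rose 1.76-fold, Nol11 1.51-fold, Wdr43 1.44-fold and Utp15 1.26-fold, while Utp4 (0.30 ± 0.16, adjusted p = 0.0975) and Wdr75 (0.23 ± 0.11, adjusted p = 0.086) were not called. Utp4 was called without 4T1 library 4, and Wdr75 without 4T1 library 2 or 4. Utp18, of the UTP-B complex, rose 1.29-fold. Noc4l and Nop14 are partners in a complex known from yeast. Noc4l rose 1.33-fold (0.41 ± 0.17, adjusted p = 0.0382). Noc4l and Utp15 each kept their call in 9 of 18 fits that left out 1 library, and lost it without any of HC11 DOX libraries 1, 3, 4, 5 and 6 and 4T1 libraries 1, 3, 7 and 8. Nop14 (0.19 ± 0.14, adjusted p = 0.221) and Utp20, a large scaffold of the late particle (0.21 ± 0.20, adjusted p = 0.368), were not called.

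Of the 5 pre-40S factors 0 were called, by edgeR's quasi-likelihood test or by DESeq2, and 1, Rrp12, was called by limma voom and at an unadjusted p under 0.05. Rrp12, an export factor, had 44.4, 90.2 and 104 CPM in 4T1 DOX, against 20.5, 56.5 and 93.0 CPM in HC11 DOX, a log2 fold change of 0.55 ± 0.26 (adjusted p = 0.0654), called without HC11 DOX library 8 or 10 or 4T1 library 2 or 4. Pno1, Bysl, Tsr1 and Ltv1, assembly factors that bind the young particle and leave it late, had log2 fold changes of 0.06 to 0.33. Tsr1 was called without 4T1 library 2 or 4. The exons of Tsr1 share 32.3% of their bases with Srr on the other strand, and no strand setting is given in the sources used here. The difference between the classes was not tested, and of 8 other pre-40S genes 5 rose in 4T1 DOX and 2 fell.

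Among the 10 pre-60S factors 8 rose, and Bop1 had the largest log2 fold change of all 39 genes. Bop1, Pes1 and Wdr12 are the 3 subunits of the PeBoW complex, which is needed to process the RNA of the large subunit. Bop1 had 108, 157 and 179 CPM in 4T1 DOX, against 27.7, 57.2 and 79.5 CPM in HC11 DOX. It rose 2.68-fold without overlap (1.42 ± 0.20, adjusted p = 3.61e-06). Wdr12 had 76.4, 80.6 and 96.7 CPM in 4T1 DOX, against 25.3, 44.1 and 63.1 CPM in HC11 DOX, a rise of 1.83-fold without overlap (0.87 ± 0.13, adjusted p = 9.01e-06). Their partner Pes1 had 164, 203 and 209.7 CPM in 4T1 DOX, against 91.5, 161 and 212 CPM in HC11 DOX, and was not called (0.32 ± 0.14, adjusted p = 0.0522), except without HC11 DOX library 7, 8, 9 or 10 or 4T1 library 2 or 4. The subunits of this complex thus had log2 fold changes of 1.42, 0.87 and 0.32, and the difference between them was not tested. Noc2l rose 1.94-fold, Ebna1bp2 1.83-fold and Nop16 1.77-fold without overlap, and Nop2, an RNA methyltransferase, 1.74-fold, Ppan 1.58-fold and Nip7 1.31-fold with overlap. The call of Nip7 was lost without HC11 DOX library 3, 4 or 5 or 4T1 library 1, 3, 7 or 8. Noc2l shares 20.9% of its exon bases with Samd11. Rrs1, which in yeast helps to load the smallest ribosomal RNA onto the large subunit, was at 0.08 ± 0.19 (adjusted p = 0.7).

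**Figure D3:**
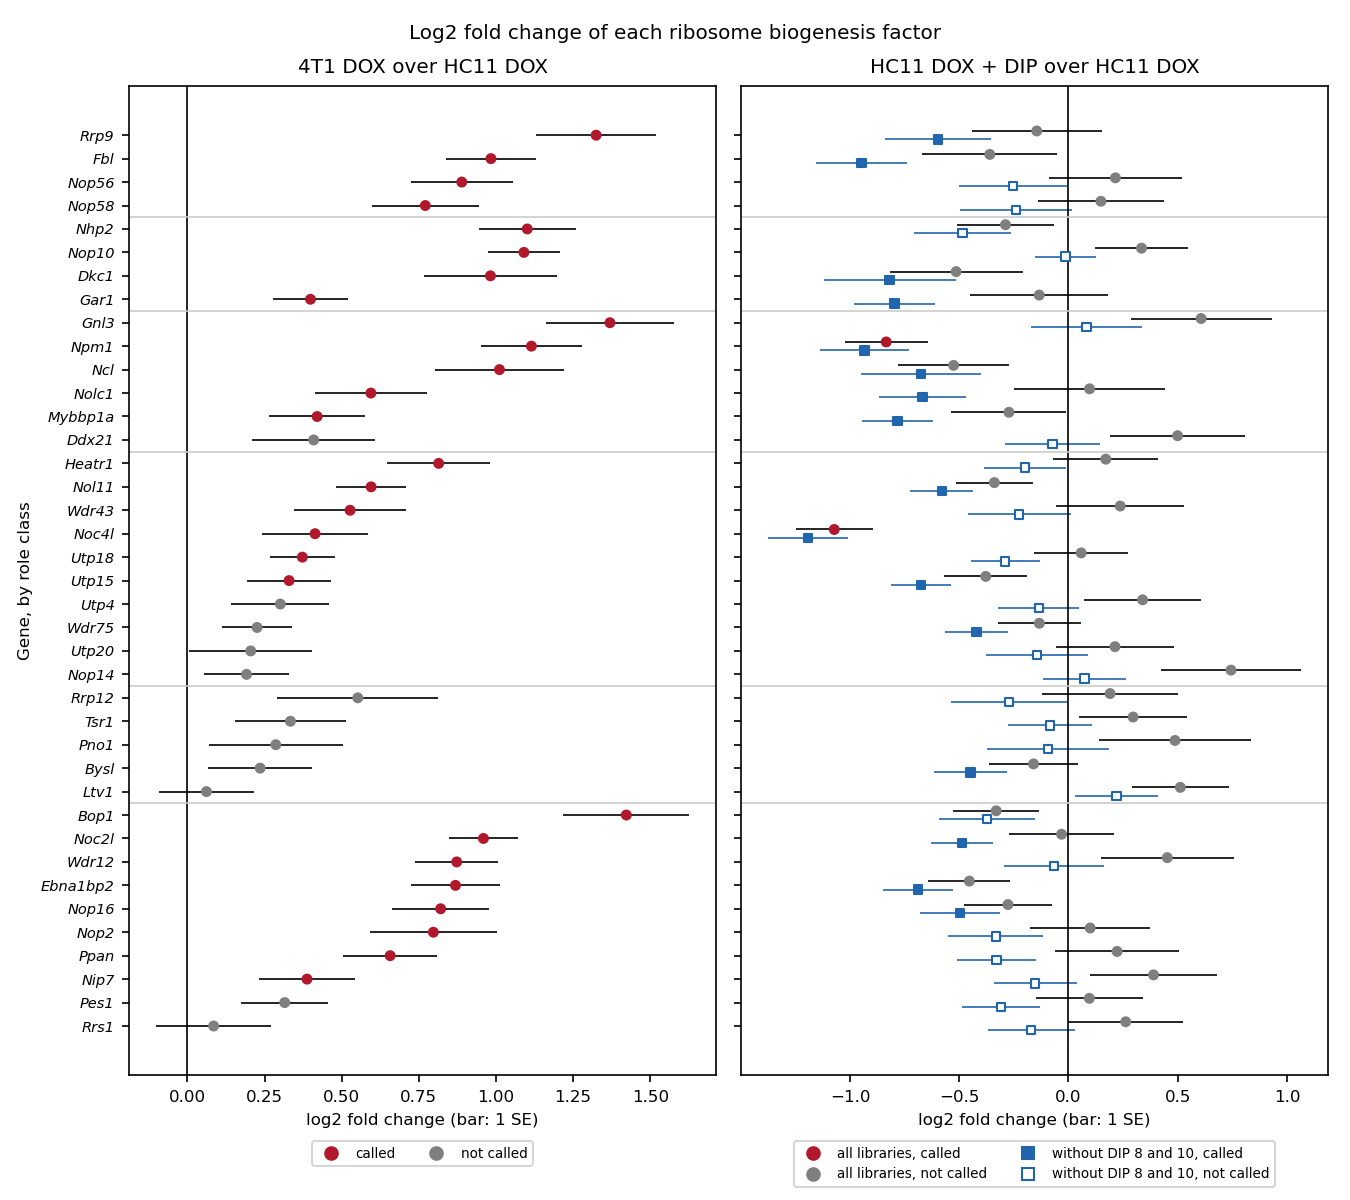
Log2 fold change of each of the 39 factors with bars of 1 SE, for 4T1 DOX over HC11 DOX (left) and HC11 DOX + DIP over HC11 DOX (right), with called genes in red for all libraries. On the left all 39 points lie above 0 and 27 are called; on the right 2 are called with all libraries (circles) and 16 without HC11 DOX + DIP libraries 8 and 10 (squares, filled where called), all 16 below 0.

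The wider pathway was read from 115 further genes, of which 76 rose and 9 fell in 4T1 DOX, with a median log2 fold change of 0.43. Of all genes tested 34.3% were called higher and 35.6% lower. Among those with the largest rises were Wdr36 (1.96 ± 0.10), Wdr46 (1.84 ± 0.17) and Fcf1 (1.45 ± 0.11) of the SSU processome and Nol12 (1.65 ± 0.12) of pre-60S particles. The largest falls were Nol6 of the processome (-0.71 ± 0.16), Urb1 of pre-60S particles (-0.50 ± 0.20), Exosc9 of the RNA exosome (-0.49 ± 0.07) and Naf1, which assembles box H/ACA particles (-0.41 ± 0.13). The RNA exosome, which trims the precursor, had 11 rises and 1 fall among 14 genes. Unlike the 39 factors, this list therefore held genes called lower, and the difference between the lists was not tested. Myc was 2.39-fold higher in 4T1 DOX (1.26 ± 0.14, adjusted p = 1.07e-07) and Mki67 1.47-fold (0.56 ± 0.19, adjusted p = 0.015), though Mki67 was not called with library totals only (0.32, adjusted p = 0.179) or in the fit of all 3 groups (0.55, adjusted p = 0.13). The part of both genes in these rises was not tested.

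With DIP, 2 of the 39 factors fell in HC11 cells and 0 rose, by edgeR's quasi-likelihood test over 23829 genes, of which 24.5% were called higher and 21.0% lower. At an unadjusted p under 0.05, 2 factors were higher and 3 lower, while DESeq2 called 1 higher, Nop14, and 2 lower, and limma voom 0 higher and 2 lower. The median log2 fold change of the factors was 0.10, against 0.06 for all genes tested, and limma voom gave -0.01 for the factors. Groups overlapped for all 39 factors, while 4.76% of the genes tested lay apart higher and 6.66% lower. Noc4l had 20.3, 25.3 and 34.5 CPM in HC11 DOX + DIP, against 30.1, 55.0 and 81.9 CPM in HC11 DOX. It fell 2.10-fold with DIP (log2 fold change -1.07 ± 0.18, adjusted p = 3.64e-05). Npm1 had 424, 534 and 890 CPM in HC11 DOX + DIP, against 479, 1135 and 1433 CPM in HC11 DOX, and fell 1.78-fold (-0.83 ± 0.19, adjusted p = 0.00111). Both kept their call in all 20 fits that left out 1 library each. Without library 8 alone or library 10 alone, 5 factors fell, with Utp15, Nol11 and Ebna1bp2 added. Without library 2 or without library 7 of HC11 DOX + DIP, 2 rose, Nop14 and Ltv1, and without library 9 only Nop14.

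Without libraries 8 and 10, 16 of the 39 factors fell with DIP and 0 rose, and 36 of the 39 log2 fold changes were below 0. Of the 24427 genes then tested, 27.0% were called higher and 25.4% lower. The median over the factors was -0.33, against 0.00 over all genes. These 2 libraries were the highest of the group for most factors, so leaving them out had to lower the group's level. It also narrowed the spread, with a median SD over the factors of 0.70 with all libraries and 0.43 without the 2. The 2 were left out with their high levels known. Calls and adjusted p-values of fits without them therefore describe the remaining libraries and are no independent test. In the same 8 libraries basal markers summed to 929 to 1791 CPM, against 2893 to 7626 CPM in HC11 DOX. Fibroblast markers summed to 49.1 to 252 CPM, against 33.2 to 73.1 CPM, and epithelial markers to 614 to 1005 CPM, against 583 to 832 CPM. Members differed within these sums. Trp63 and Itga6 overlapped HC11 DOX. Dcn was above it (24.8 to 204 against 0.736 to 12.8 CPM), and Col1a1 ranged more widely (0.20 to 88.2 against 15.3 to 50.9 CPM). Krt7 was above HC11 DOX (85.8 to 187 against 21.0 to 70.1 CPM) and Cdh1 below it (197 to 252 against 276 to 401 CPM). Malat1 took 0.0953% to 0.158% of counts in these 8 libraries, against 0.0109% to 0.0479% in HC11 DOX, and mitochondrial genes 3.44% to 5.33%, against 2.96% to 5.07%. The part of these in the falls was not tested. No factor was higher at an unadjusted p under 0.05. Noc4l then had 20.3, 24.4 and 27.3 CPM with DIP, below every HC11 DOX library, and fell 2.29-fold (-1.19 ± 0.18, adjusted p = 1.71e-05), the 1 factor that lay apart, as did 8.54% of genes tested on the lower side and 9.35% on the higher. The falls were 4 of 6 in the nucleolar proteins, 2 of 4 in each snoRNP class, 4 of 10 in the processome, 3 of 10 among pre-60S factors and 1 of 5 among pre-40S factors.

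Fbl shows how much the 2 libraries carried. It had 37.3, 61.8 and 113 CPM in the other 8 HC11 DOX + DIP libraries and 197 and 258 CPM in libraries 8 and 10, against 67.4, 129 and 176 CPM in HC11 DOX. Its log2 fold change was -0.36 ± 0.31 (adjusted p = 0.363) with all libraries and -0.95 ± 0.21 (adjusted p = 0.000771) without the 2. Dkc1 moved likewise, with -0.51 ± 0.30 (adjusted p = 0.178) with all libraries and -0.82 ± 0.30 (adjusted p = 0.0285) without them. Ncl had -0.53 ± 0.26 (adjusted p = 0.0983) and -0.68 ± 0.27 (adjusted p = 0.0442), and Rrp9 -0.15 ± 0.30 (adjusted p = 0.726) and -0.60 ± 0.24 (adjusted p = 0.0464). Nop56 and Nop58 changed sign, with 0.21 ± 0.30 and 0.15 ± 0.29 with all libraries and -0.25 ± 0.25 and -0.24 ± 0.26 without them, and were called in neither. Gnl3 was not called either way, at 0.61 ± 0.32 (adjusted p = 0.131) with all libraries and 0.08 ± 0.26 (adjusted p = 0.808) without. Bop1 hardly moved, at -0.33 ± 0.20 (adjusted p = 0.182) and -0.37 ± 0.22 (adjusted p = 0.161).

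**Figure D4:**
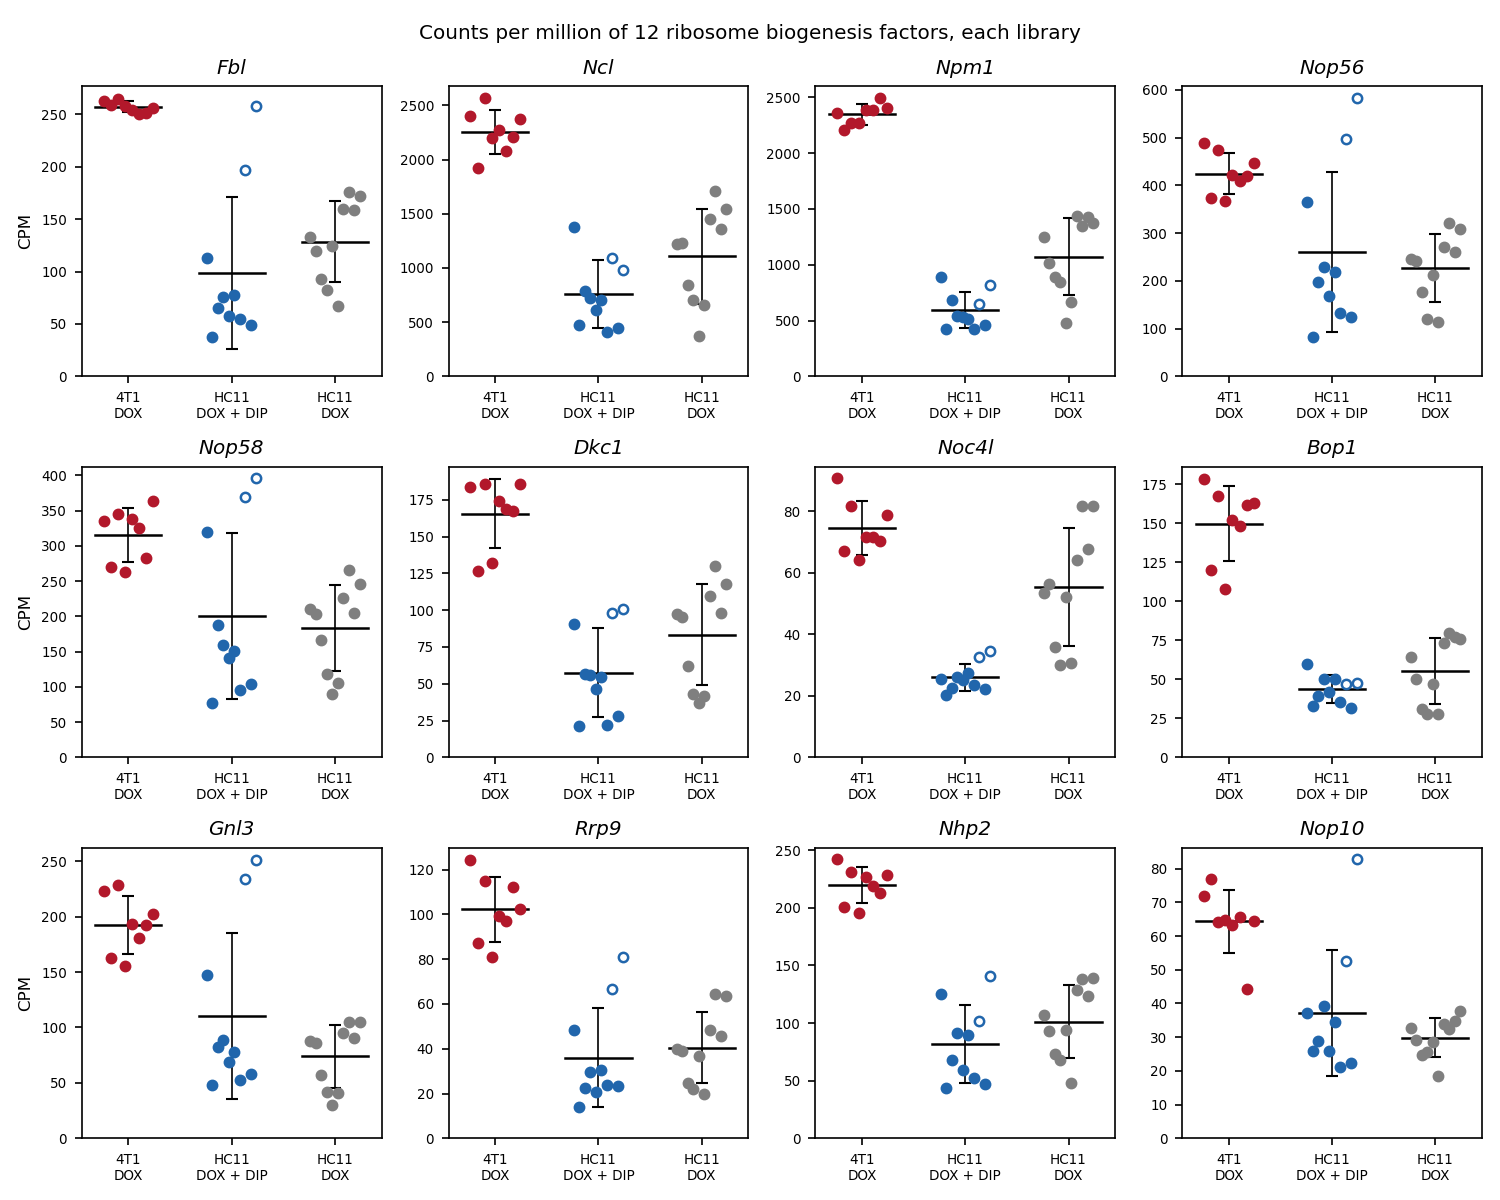
CPM of 12 factors in each library by group, with the mean as a line and 1 SD as a bar; open circles are HC11 DOX + DIP libraries 8 and 10. The open circles lie above the 4T1 DOX points for Nop56, Nop58 and Gnl3, and among the HC11 DOX points for Ncl, Npm1, Dkc1, Noc4l and Bop1.

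The 2 libraries held the highest levels of the set among all 20 HC11 libraries. For 28 of the 39 factors libraries 8 and 10 were the 2 highest, as for 16.3% of the genes tested. Library 8 stood at a median of 2.54 times, and library 10 at 2.80 times, the median of the other 8 HC11 DOX + DIP libraries. The ratios ran from 1.16 and 1.17 for Bop1 to 4.31 for Nolc1 in library 8 and 4.44 for Gar1 in library 10. Nop14 stood at 3.83 and 4.02 times, Pno1 at 3.69 and 4.04 times and Fbl at 3.19 and 4.18 times. At the low end, Noc4l stood at 1.33 and 1.41 times, Npm1 at 1.24 and 1.57 times and Ncl at 1.65 and 1.48 times. For Ncl, Npm1 and Bop1 neither library was above all the other 8, and library 1 was the highest of the group. Partners of 1 complex lay apart in these ratios, Nop14 from Noc4l and, in PeBoW, Wdr12 at 2.97 and 3.26 times from Bop1. These libraries were known to be high for the set before the ratios were taken, so no test is given.

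**Figure D5:**
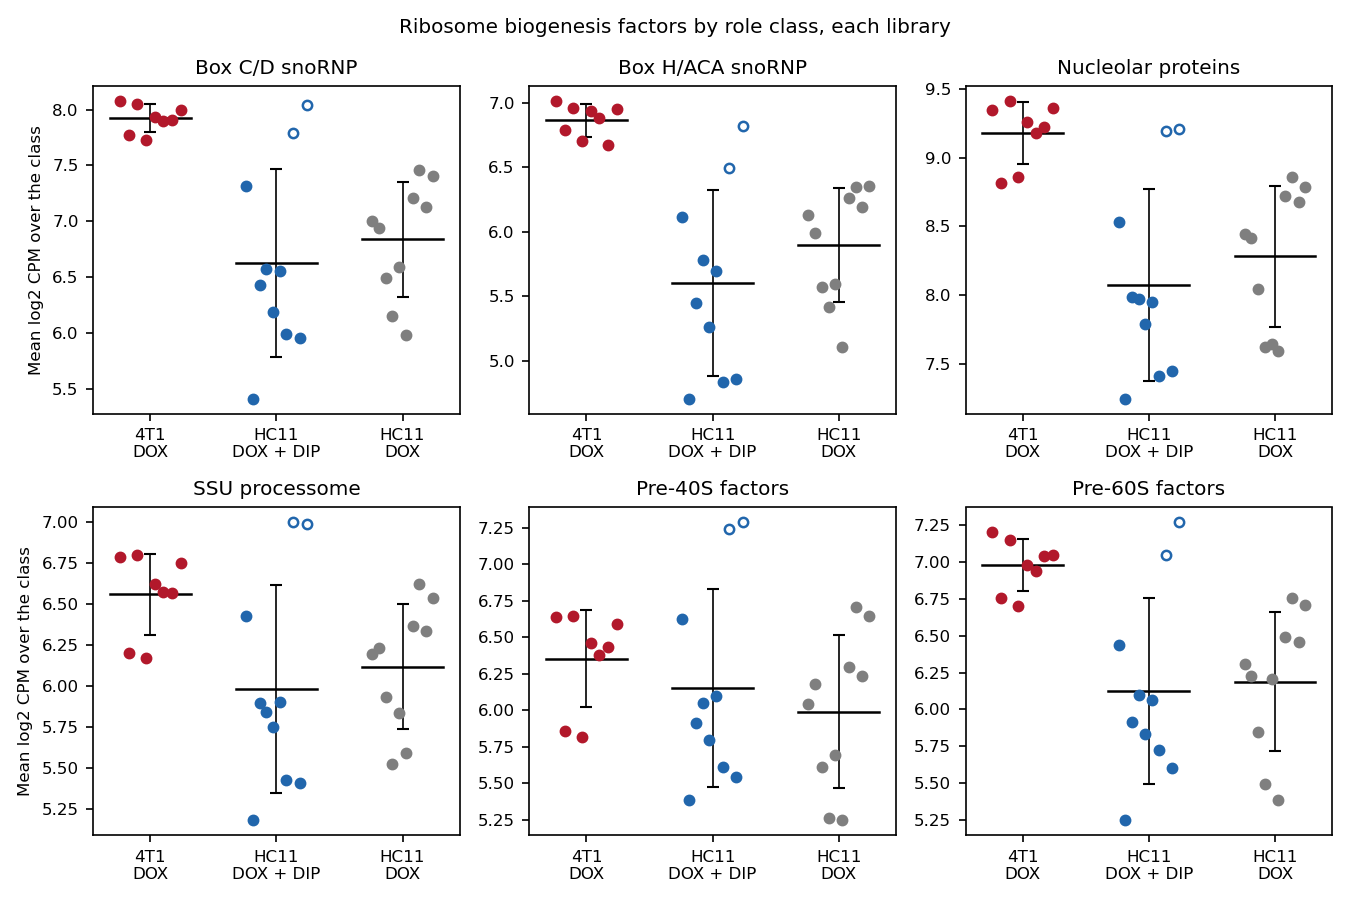
Mean log2 CPM over the genes of each of 6 role classes in each library by group, with the group mean as a line and 1 SD as a bar; open circles are HC11 DOX + DIP libraries 8 and 10, and the axes do not start at 0. For pre-40S factors and the SSU processome the open circles lie above all 4T1 DOX points, and for box H/ACA proteins library 8 lies below them.

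The other end of the HC11 DOX + DIP group was library 2, the lowest in the group for most factors. Its mean over the set was 5.52 on the log2 CPM scale, against 5.79 and 5.83 in libraries 9 and 7. Fibroblast markers summed to 252 CPM in library 2, 159 CPM in library 7 and 173 CPM in library 9, against at most 128 CPM in any other library of the group. Different genes made up these sums. Dcn had 204 CPM in library 2, 48.9 CPM in library 7 and 54.4 CPM in library 9, and Col1a1 had 16.6, 80.0 and 88.2 CPM. The 128 CPM, mostly Dcn, was in library 1, the highest for the set among the 8. Leaving library 1 aside, the rest of the 8 ran in opposite order for the factors and the fibroblast sum. They ran from library 4, at 6.33 and 49.1 CPM, through libraries 6, 3, 5, 7 and 9 to library 2, at 5.52 and 252 CPM. The part of the fibroblast genes in the low levels of the factors was not tested.

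Of the 115 further pathway genes, 10 rose with DIP and 17 fell, where 24.5% of all genes tested were called higher and 21.0% lower. Without libraries 8 and 10, 3 rose and 47 fell, where 27.0% of all genes tested were called higher and 25.4% lower. Sbds, which frees the large subunit for translation, rose most, by 1.29 ± 0.22 on the log2 scale (adjusted p = 7.77e-05). Nol8 (1.12 ± 0.42), Mdn1 (0.87 ± 0.28) and Ddx55 (0.86 ± 0.35), of pre-60S particles, were called with all libraries and not without the 2. The largest falls were Exosc9 (-1.32 ± 0.15), Exosc8 (-1.22 ± 0.21) and Exosc6 (-0.88 ± 0.26) of the RNA exosome and Tcof1, treacle (-0.93 ± 0.23), a nucleolar partner of RNA polymerase I. Of 14 exosome genes, 5 fell with all libraries and 11 without the 2. Myc rose 2.81-fold with DIP (1.49 ± 0.48, adjusted p = 0.0142; by limma voom 0.78, adjusted p = 0.153) with all libraries, and its log2 fold change was 0.22 ± 0.22 without libraries 8 and 10 (adjusted p = 0.409). Mki67 fell 26.5-fold with DIP (-4.73 ± 0.40), and the part of cycling cells in the values of the factors was not tested.

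Between 4T1 DOX and HC11 DOX + DIP, 21 of the 39 factors were higher in 4T1 DOX and 0 lower by edgeR's quasi-likelihood test over 24132 genes, of which 35.9% were called higher and 37.9% lower. No factor was lower at an unadjusted p under 0.05, while DESeq2 called 1 lower, Ltv1, and limma voom 0. Without libraries 8 and 10, 32 were higher and 0 lower, with 39.3% of 23698 genes called higher and 40.3% lower. The limit given above for fits without these libraries holds here too. Line and DIP cannot be told apart here, and both groups also enter the comparisons above. The median log2 fold change was 0.69 with all libraries and 1.02 without the 2, against -0.04 and -0.02 for all genes tested. For 8 factors every 4T1 library lay above every HC11 DOX + DIP library, as for 21.2% of genes tested, and for 22 without the 2 libraries, as for 27.4%. No factor lay apart on the lower side, as 18.3% of genes did with all libraries and 26.5% without the 2.

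The largest differences were those of Npm1, Bop1, Ncl, Noc4l, Dkc1 and Rrp9. Npm1 was 4.06-fold higher in 4T1 DOX (2.02 ± 0.14, adjusted p = 1.26e-10) and Bop1 3.54-fold (1.82 ± 0.13, adjusted p = 3.38e-10). Ncl was 3.04-fold higher (1.60 ± 0.20, adjusted p = 7.07e-07), Dkc1 2.95-fold (1.56 ± 0.28, adjusted p = 5e-05) and Noc4l 2.94-fold (1.56 ± 0.11, adjusted p = 2.08e-10). For these 5 genes the groups did not overlap with all libraries in. Rrp9 was 2.90-fold higher (1.53 ± 0.28, adjusted p = 7.38e-05), with overlap through library 10 at 81.0 CPM, against 80.9 CPM in the lowest 4T1 library. Nop14 (-0.49 ± 0.35), Ltv1 (-0.38 ± 0.23), Pno1 (-0.14 ± 0.35), Rrs1 (-0.11 ± 0.26) and Ddx21 (-0.03 ± 0.34) had log2 fold changes below 0 and were not called. Without the 2 libraries, Ltv1 alone of the 39 stayed below 0, at -0.16 ± 0.17 (adjusted p = 0.404).

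By class, the box C/D proteins gave 4 rises of 4 and the box H/ACA proteins 3 of 4, with Gar1 not called. The nucleolar proteins gave 4 of 6, the pre-60S factors 5 of 10, the processome 4 of 10 and the pre-40S factors 1 of 5, Bysl at 0.46 ± 0.19 (adjusted p = 0.0337). Bysl shares 9.4% of its exon bases with Ccnd3 on the other strand, whose count reached up to 223% of that of Bysl. Without 4T1 libraries 1 and 2, 17 factors were higher and 0 lower, and Nop56 (0.69, adjusted p = 0.0828), Nop58 (0.66, adjusted p = 0.0749), Gnl3 (0.78, adjusted p = 0.0516) and Bysl (0.40, adjusted p = 0.0954) were not called. The box C/D class then gave 2 rises of 4 and the pre-40S factors 0 of 5. The call of Bysl held in 8 of 18 fits that left out 1 library, and was lost without 4T1 library 1 or 3 or any HC11 DOX + DIP library but 8 and 10. Nop56 kept its call in 10 of 18, and lost it without 4T1 library 1 or 3 or HC11 DOX + DIP library 3, 4, 5, 6, 7 or 9. Nop58 kept it in 8 of 18, and lost it without 4T1 library 3, 5 or 8 or HC11 DOX + DIP library 2, 3, 4, 5, 6, 7 or 9. Of the factors not called, Gar1, Nolc1, Ppan, Utp18, Wdr12 and Wdr75 were called without library 8 alone or library 10 alone, and Rrp12 without library 8. Of the 115 further genes 64 were higher and 6 lower, where 35.9% of all genes tested were called higher and 37.9% lower. Exosc8 (2.27 ± 0.22), Wdr36 (2.23 ± 0.18), Tcof1 (1.96 ± 0.23) and Wdr46 (1.85 ± 0.20) had the largest rises, and Nol6 (-1.46 ± 0.42), Mdn1 (-1.16 ± 0.33), Nol8 (-1.15 ± 0.40) and Sbds (-1.04 ± 0.25) the largest falls.

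Across the 3 groups, the factors can be put in order by their medians over libraries. The median of 4T1 DOX was the highest of the 3 for 38 of the 39 factors, all but Ltv1. The share of all genes tested with this order is not given here. The order holds for medians only. By log2 fold change of 4T1 DOX over HC11 DOX + DIP, 34 factors were above 0. The other 5, Ddx21, Ltv1, Nop14, Pno1 and Rrs1, were below it. With library totals only 10 were below 0, and by limma voom 2. Ltv1 had medians of 45.1 CPM in 4T1 DOX, 50.7 CPM in HC11 DOX + DIP and 41.7 CPM in HC11 DOX. For Ltv1 no pair of groups differed at an adjusted p under 0.05 in edgeR's quasi-likelihood test. HC11 DOX + DIP and HC11 DOX were not called different for 37 of the 39 with all libraries, and Noc4l and Npm1 were lower with DIP.

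The genes with and without an E-box were set side by side as a description, with no test. Of the 11 with the sites printed above, 5 were called higher in 4T1 DOX over HC11 DOX (Mybbp1a, Nol11, Nop2, Utp18 and Wdr43), with a median log2 fold change of 0.33. Of the 23 with a window and no E-box, 19 were called higher, with a median of 0.81. In HC11 DOX + DIP libraries 8 and 10, where Myc was at 887 and 1000.3 CPM, the 11 genes stood at a median of 2.55 and 2.71 times the other 8 libraries, and the 23 genes at 2.54 and 2.85 times. An absent CACGTG says only that these letters are not in the window.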

How the data were processed

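The submitters' processing notes name fastp 0.23.2, featureCounts 2.0.1 and the mouse build GRCm39; aligner, annotation release and strand: not given in the sources used here. Per the labels' protocols, TRIzol RNA was depleted of ribosomal RNA and made into libraries with a NEBNext kit. The values are the authors' deposited counts per Ensembl gene, whole numbers with no normalization. The members and lists were chosen with earlier results of these data known. Genes passing filterByExpr were tested in each pair of groups with edgeR 4.0.16 (R 4.3.3; TMM factors, robust quasi-likelihood test, Benjamini-Hochberg adjustment over all genes tested), and a gene was called at an adjusted p under 0.05. TMM factors for CPM were taken over the 28 libraries together, with a prior count of 2 on the log2 scale. Tables were summarised with Python 3.11.15, pandas 2.3.3 and numpy 2.4.6, and plotted with matplotlib 3.10.9. The tests were also run on simulated counts, in which libraries varied independently around a common mean for each gene and group. That check does not cover libraries that share a culture or stand apart from their group. Symbols, exon lengths and overlaps came from GENCODE for GRCm38, and promoters from RefSeq for GRCm38.p6, so no coordinate of the deposited build is given. Full statistics are given for Fbl, Ncl, Npm1, Nop56, Nop58 and Dkc1 and the up to 6 called factors with the largest changes in each direction of a comparison, and for the 4 further pathway genes with the largest called changes each way; other names were chosen with their values seen. Alternatives were RLE, upper-quartile and total scaling, no filter, a 1 CPM filter, DESeq2 1.42.0, limma voom 3.58.1, a fit of all 3 groups, no robust estimation, each library left out in turn, and HC11 DOX + DIP libraries 8 and 10 or 4T1 libraries 1 and 2 left out together. Library numbers follow accession order, and the labels give no pairing of libraries.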

Additional observations from a re-analysis of the deposited data

Results flagged for a closer look

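Of 66 sets of values examined for a library far from the others of its group, 2 were picked out, and chance flags about 1 in 20 groups. Nop10 in 4T1 DOX had its lowest level in library 7, at 44.3 CPM, and the gap to the next library was 0.6471 of the whole range of log2 CPM. Mki67 in HC11 DOX had its lowest level in library 5, at 87.9 CPM, with a gap of 0.532 of the range.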

How the results depend on the processing

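With DIP in HC11 cells, 0 factors rose in most fits, against 1 with upper-quartile factors (Ltv1), 1 with DESeq2 (Nop14) and 2 in a fit of all 3 groups, while 4 fell in that fit and 16 without libraries 8 and 10. Of the 115 further genes, 10 rose with DIP in the reported fit, 4 by limma voom and 3 without libraries 8 and 10, and 47 then fell. With library totals only, 44 of the further genes rose and 17 fell in 4T1 DOX over HC11 DOX, and 3 fell in the fit of all 3 groups. For 4T1 DOX over HC11 DOX + DIP, 13 factors rose with library totals and 32 without libraries 8 and 10, and 1, Ltv1, fell with upper-quartile factors, library totals, a 1 CPM filter and DESeq2. The further genes then gave 36 rises and 11 falls with library totals. Library totals put the median of all genes at -0.34 in that comparison, and the factors lay 0.72 above it, as with TMM factors. The cause of these moves was not tested beyond the scaling itself and the fewer libraries.

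With 1 library left out, 0 to 2 factors rose and 2 to 5 fell with DIP (median -0.10 to 0.19), with 4 to 13 rises and 14 to 25 falls of further genes and 10244 to 11438 genes called in all. For 4T1 DOX over HC11 DOX the ranges were 23 to 33 rises and 0 to 0 falls (median 0.51 to 0.66), 66 to 78 and 7 to 12 for further genes, and 16229 to 16916 genes in all. For 4T1 DOX over HC11 DOX + DIP they were 18 to 28 and 0 to 0 (median 0.58 to 0.85), 58 to 73 and 6 to 7, and 17132 to 18304. The most rises of further genes with DIP came without HC11 DOX + DIP library 2 and the fewest without HC11 DOX library 3.

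With DIP, 22 of the 39 factors were above 0 with all libraries, 3 without libraries 8 and 10, 16 without library 8 alone and 15 without library 10 alone. Among the genes given with full statistics, signs turned without the 2 for Nop56 (-0.25), Nop58 (-0.24), Nop10 (-0.014) and the further gene Ddx55 (-0.023), and without library 10 alone for Nop56 and Nop58, whose ranges with 1 library left out were -0.0030 to 0.32 and -0.022 to 0.24. Myc in 4T1 DOX over HC11 DOX + DIP was -0.17, against 0.59 by limma voom, 1.04 without libraries 8 and 10, 0.23 without library 8 and 0.25 without library 10, and ranged over -0.30 to 0.25 with 1 library left out. Among the other fold changes of single genes, 1231 of those with 1 library left out kept direction and side of the threshold and 51 lost the call. No paired analysis was possible because the labels give no replicate numbers and the numbers used here follow accession order. Depth limited no value of a factor, and counting error was small beside the spread between libraries.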
